A study of Mus musculus with 12 samples.

Results

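The genes described here are 45 type I interferon-stimulated genes of the mouse, taken by symbol from a fixed list out of the 55401 gene identifiers in the count tables. The list holds both chains of the type I interferon receptor, transducers of its signal, nucleic acid sensors, antiviral effectors and interferon-induced GTPases. All 45 were found in the tables and passed the filter on low counts, which left 16426 genes. The samples were OT-I CD8 T cells, which carry a transgenic T cell receptor for an ovalbumin peptide, in 4 groups of 3 libraries. Naive cells were taken from lymph nodes of OT-I mice that had no tumour. Effector cells were OT-I cells after 5 days of culture with antigen in vitro. The day 4 and day 14 cells, which the labels call exhausted, were CD44+ OT-I cells sorted from B78ChOVA melanomas of C57Bl6/J mice, 4 or 14 days after they had been transferred. The tumour line, B78ChOVA, is a melanoma that expresses ovalbumin and the red protein mCherry, and the hosts had T cells of their own. All 4 groups share the OT-I genotype. Nothing in the labels says which libraries came from separate animals or cultures, so the p-values measure the spread between these libraries only.

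Type I interferons are a family of secreted proteins, the interferon alphas and interferon beta among them, which infected cells and sentinel immune cells release. They bind a receptor of the chains IFNAR1 and IFNAR2, whose kinases JAK1 and TYK2 phosphorylate STAT2. It joins IRF9 in a complex that enters the nucleus and binds interferon-stimulated response elements in the promoters of target genes. Most cells keep a low tonic level of these genes without infection. In CD8 T cells, type I interferon acts as a costimulatory signal during priming, and long exposure is known from chronic infection and tumours.

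Gene counts per library ranged from 11937053 to 17094006. The 6 CD8 T cell markers (Cd3d, Cd3e, Cd3g, Cd8a, Cd8b1, Trac) had counts in every library, and their summed level, in CPM (counts per library of equal size, set by TMM factors), was 3501 to 3861 in naive cells, 4287 to 4709 in effector cells, 2341 to 2844 at day 4 and 3274 to 3425 at day 14. Markers of other cell types moved in both directions between groups. The 12 macrophage and monocyte markers summed to 14.5 to 27.6 CPM in naive cells, 6.19 to 10.1 in effector cells, 64.9 to 134.6 at day 4 and 67.5 to 121 at day 14. Of these 12 markers, 5 had no count in any effector library, 1 had none in any naive library, and each had some in both tumour groups. Of the 11 tested, 4 were called higher at both tumour times against naive (Cd68, C1qb, Apoe and Ms4a7) and 0 lower. Over all genes tested, 33.4% were higher and 28.8% lower at day 4, and 33.6% and 28.5% at day 14. The share of these markers called higher was thus near that of all genes. Apoe and Cd68 made up most of the tumour sums (Apoe 45.1 ± 9.34 and Cd68 18.4 ± 2.85 CPM at day 4). Csf1r averaged 2.33 CPM in naive and 2.15 CPM in day 4 libraries. The 8 markers of dendritic cells and MHC class II summed to 8.34 to 31.9, 7.55 to 20.7, 119.3 to 151 and 159.2 to 209.1 CPM in the same order. The 7 melanoma markers summed to 26.2 to 42.4 CPM outside tumours, 666 to 1003 at day 4 and 413.6 to 1608 at day 14. The 5 B cell markers ran the other way, with 18.1 to 21.4 CPM in naive, 8.34 to 13.4 in effector, 3.74 to 6.73 in day 4 and 1.53 to 4.62 in day 14 libraries. The sum of the 4 endothelial markers, most of it Pecam1, was 177.7 to 197.6 CPM in naive and 43.8 to 87.7 in tumour libraries. Of the 2 endothelial markers tested, 1 was called higher and 1 lower at both tumour times against naive (all genes: 33.4% to 33.6% higher and 28.5% to 28.8% lower). Vwf averaged 0.0521 CPM in naive cells, 5.11 at day 4 and 3.79 at day 14. The part of this other RNA in the results below was not tested. In bulk RNA, fewer cells of a type and less RNA per cell cannot be told apart.

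**Figure D1:**
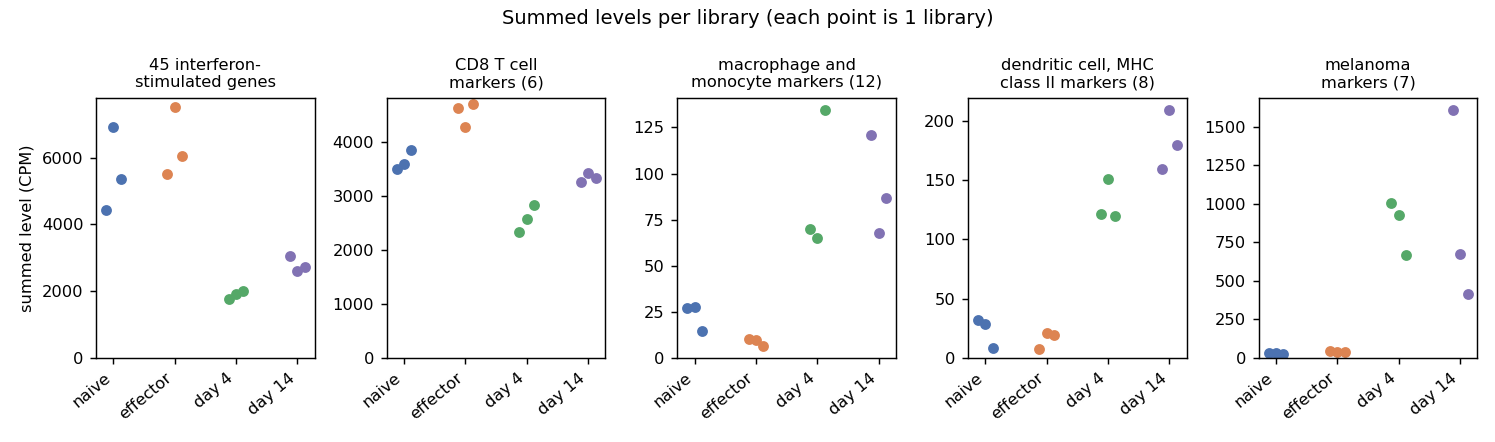
Summed level in CPM (vertical axes) of the 45 genes and of 4 marker lists in each library, by group (horizontal axes); each point is 1 library. The 45 genes summed to 1772 to 1989 CPM in day 4 libraries and to 2607 to 3058 in day 14 libraries, all below the 4438 to 7504 of naive and effector libraries, while melanoma and myeloid markers stood higher in both tumour groups.

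Across the 4 states, the summed level of the interferon-stimulated genes was high in naive and effector cells. It was lowest in cells 4 days in the tumour, and in between after 14 days. Summed over the 45 genes, the level was 4438, 6923 and 5375 CPM in naive, 5520, 7504 and 6045 in effector, 1772, 1910 and 1989 in day 4, and 3058, 2607 and 2727 in day 14 libraries. No tumour library reached the lowest naive or effector library, and the 2 tumour groups did not overlap either. Replicate 2 was the highest library of both the naive and the effector group. The day 4 mean was the lowest of the 4 group means for 35 of the 45 genes, against 24.4% of all genes tested. The effector mean was the lowest for 6, namely Isg15, Oasl1, Oasl2, Mx2, Ifih1 and Eif2ak2 (all genes: 24.6%). The median gene stood at 96.6% of its naive mean in effector cells (range 2.36% to 258%). At day 4 it stood at 27.4% (1.17% to 155%) and at day 14 at 43.2% (1.32% to 259%). By edgeR's quasi-likelihood test with Benjamini-Hochberg adjustment over all genes tested (called at an adjusted p under 0.05), 44 of 45 differed among the 4 groups, where 74.8% of all genes did. The exception was Eif2ak2, the kinase PKR (adjusted p = 0.18).

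**Figure D2:**
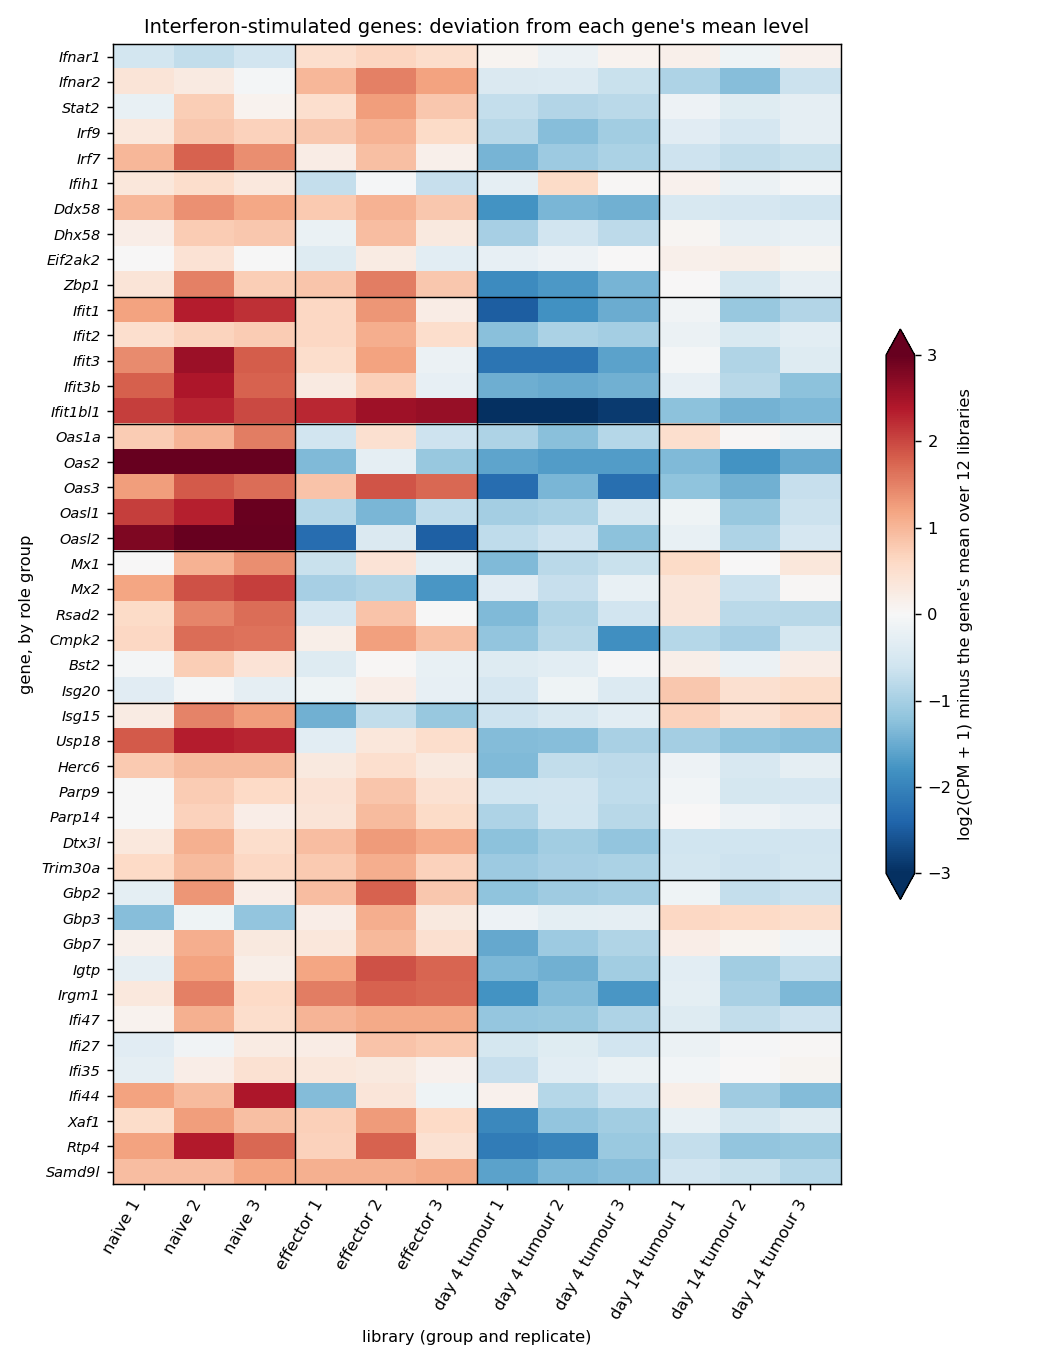
Heat map of the 45 genes (rows, by role group) in the 12 libraries (columns): colour gives log2(CPM + 1) minus the mean of the gene over all libraries. Most rows are red in naive and effector columns and darkest blue in the day 4 columns, and the Oas2, Oasl1 and Oasl2 rows are red in naive columns and not in the others.

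In day 4 tumour cells against naive cells, 39 of 45 genes fell (all genes: 28.8% lower) and 1 rose, the receptor gene Ifnar1 (all genes: 33.4% higher). The median log2 fold change was -1.86 for the 45 genes and 0.03 over all genes tested. At day 14 against naive, 31 fell (all genes: 28.5%) and 3 rose, namely Isg20, Gbp3 and Ifnar1 (all genes: 33.6%), with a median log2 fold change of -1.21 against 0.04 over all genes. Against effector cells, 35 fell at day 4 (all genes: 29.2%) and 2 rose, Mx2 and Ifih1 (all genes: 32.7%), with a median of -1.67 against 0.06. At day 14 against effector cells, 29 fell (all genes: 28.4%) and 3 rose, Isg15, Isg20 and Mx2 (all genes: 32.6%), with a median of -1.10 against 0.06. These comparisons share libraries. The 2 genes called higher at day 4 than in effector cells became 0 without effector replicate 3 and 4 without effector replicate 2. Over all genes, that number went from 5372 to 5491 and 5245 in the same fits. The 3 called higher at day 14 than in effector cells became 7 without effector replicate 2 and 5 without the filter on low counts (all genes: from 5356 to 5262 and 5983). The 1 called higher at day 4 than in naive cells became 2 without naive replicate 2 (all genes: from 5493 to 5325).

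Between the 2 tumour times, 18 of 45 genes rose from day 4 to day 14 (all genes: 7.17% higher) and 0 fell (all genes: 4.91% lower). DESeq2 called 20 higher and 0 lower, and over all genes 1389 higher and 1051 lower, where edgeR had 1178 and 806. At an unadjusted p under 0.05 edgeR had 25 higher and 1 lower of the 45, and no number over all genes was taken at that threshold. The median log2 fold change was 0.65 for the 45 genes and -0.004 over all genes. In 30 of the 45, every day 14 library was above every day 4 library, which held for 16.5% of all genes. The 18 were Ifit2, Ifit3, Ifit3b, Ifit1bl1, Isg15, Isg20, Oas1a, Mx1, Irf9, Zbp1, Ddx58, Xaf1, Parp14, Dtx3l, Trim30a, Samd9l, Gbp7 and Herc6. The number called was 7 without day 4 replicate 1 and 8 each without day 4 replicate 2 and without day 14 replicate 1, and over all genes the higher calls went from 1178 to 784, 783 and 834 in the same fits. The number of lower calls was 1 without day 14 replicate 3 and 1 without the filter on low counts (all genes: 805 and 1042).

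Effector cells differed from naive cells in both directions. Of the 45 genes 13 fell (all genes: 10.4% lower) and 6 rose (all genes: 14.6% higher), the latter share being near that of all genes. The median log2 fold change was -0.05 against 0.015 over all genes. The genes that fell were Ifit3, Ifit3b, Isg15, Usp18, Oas1a, Oas2, Oasl1, Oasl2, Mx2, Irf7, Bst2, Ifih1 and Herc6, and those that rose were Ifnar1, Ifnar2, Gbp3, Ifi27, Dtx3l and Ifit1bl1. The number of higher calls was 12 without naive replicate 2 and 3 without naive replicate 3. Over all genes, the higher calls went from 2395 to 1853 and 2016 in the same fits. Total counts in place of TMM factors moved the median gene of this comparison by -0.115 on the log2 scale and the split over all genes from 2395 higher and 1703 lower to 1544 and 2508. The split of the 45 genes under that scaling was 4 higher and 16 lower.

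No gene of the list was called above both other states in both tumour groups. The number called higher in both tumour groups than in both naive and effector cells was 0 by edgeR, 0 by DESeq2 and 0 at an unadjusted p under 0.05, while 22.7% of all genes tested had that pattern. Mx2 was the 1 gene called lower in effector cells than in each other group (all genes: 4.41%). That count was 0 without effector replicate 3, without day 4 replicate 1 or without day 4 replicate 3, 4 without effector replicate 2, and 2 without naive replicate 1 or naive replicate 2. It was 2 with total counts or RLE factors and 3 with DESeq2, without the filter on low counts or with the replicate block.

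**Figure D3:**
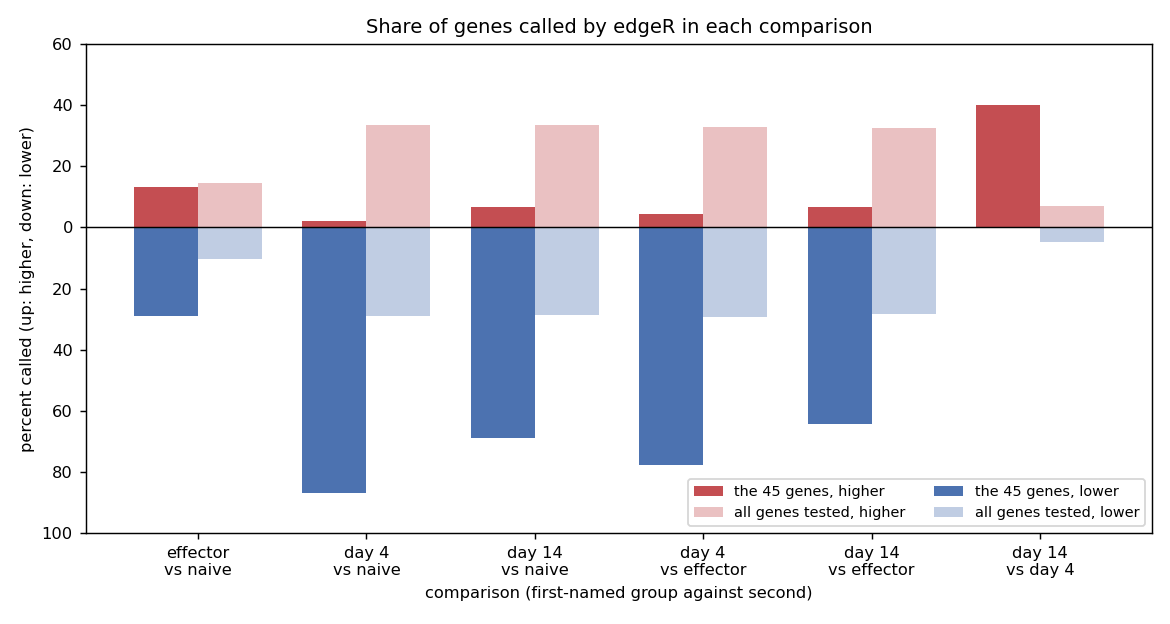
Share of genes called by edgeR in each comparison (bars up: higher in the first-named group; bars down: lower), for the 45 genes (dark) and for all 16426 genes tested (pale). In the 4 comparisons of tumour with other cells, 64.4% to 86.7% of the 45 were lower against 28.4% to 29.2% of all genes, and from day 4 to day 14, 40% were higher against 7.17%.

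Promoter sequences of the listed genes were searched for motifs of the pathway. The list was chosen as interferon-stimulated genes, so a high share with response elements can come from that choice. Such a share says nothing about the levels in these libraries. RefSeq (GRCm38.p6) windows of 250 bases before to 50 after the start of transcription were at hand for 35 of the 45 genes. The core of the interferon-stimulated response element, GAAANNGAAA or TTTCNNTTTC on the other strand, was found in 19 of these 35 (54.3%), against 3.99% of 27025 genes and 3.44% of 32851 windows. The gamma-activated site TTCNNNGAA, which reads the same on both strands, was found in 10 of 35 (28.6%), against 9.55% of genes and 8.30% of windows. A window with both motifs counted for each. Genes with the core and genes without it were found both among those that fell at day 4 against naive cells and among those not called. Isg15 held the core and fell, and Isg20 had none and was not called. Oasl1, Oasl2 and Cmpk2 had no core in their windows and fell, while Eif2ak2, Ifih1 and Gbp3 held it and were not called. A link between the core and the levels was not tested. The 200 bases before the start are shown for 7 genes, 5′ to 3′ on the strand of the gene. The response element core is in capitals. Isg15 had 3 overlapping matches, Ifit1 and Oas1a 2 each, Ifit3 and Ifit3b of the IFIT cluster 2 each, and Igtp 1. The receptor gene Ifnar1 had none in this window.
Isg15 (chr4:156200819-156201018, minus strand): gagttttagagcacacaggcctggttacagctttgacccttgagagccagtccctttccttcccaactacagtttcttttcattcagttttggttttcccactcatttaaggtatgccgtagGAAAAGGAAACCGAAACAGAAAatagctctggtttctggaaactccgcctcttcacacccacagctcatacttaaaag
Ifit1 (chr19:34640689-34640888, plus strand): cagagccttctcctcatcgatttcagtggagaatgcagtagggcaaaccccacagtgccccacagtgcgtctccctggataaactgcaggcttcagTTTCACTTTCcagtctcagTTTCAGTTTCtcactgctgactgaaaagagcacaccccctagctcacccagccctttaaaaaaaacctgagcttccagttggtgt
Ifit3 (chr19:34583329-34583528, plus strand): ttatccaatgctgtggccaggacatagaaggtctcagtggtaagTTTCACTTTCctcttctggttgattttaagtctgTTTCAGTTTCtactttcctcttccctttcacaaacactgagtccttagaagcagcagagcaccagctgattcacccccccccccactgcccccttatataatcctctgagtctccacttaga
Ifit3b (chr19:34607757-34607956, plus strand): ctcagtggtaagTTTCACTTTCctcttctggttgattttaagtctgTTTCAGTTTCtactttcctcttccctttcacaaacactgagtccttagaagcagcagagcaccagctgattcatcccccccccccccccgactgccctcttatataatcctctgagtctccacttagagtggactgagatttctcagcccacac
Oas1a (chr5:120907526-120907725, minus strand): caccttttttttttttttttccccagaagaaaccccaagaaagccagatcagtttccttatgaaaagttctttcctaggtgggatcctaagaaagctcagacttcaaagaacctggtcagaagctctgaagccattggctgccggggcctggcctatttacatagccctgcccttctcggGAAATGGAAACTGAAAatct
Igtp (chr11:58199356-58199555, plus strand): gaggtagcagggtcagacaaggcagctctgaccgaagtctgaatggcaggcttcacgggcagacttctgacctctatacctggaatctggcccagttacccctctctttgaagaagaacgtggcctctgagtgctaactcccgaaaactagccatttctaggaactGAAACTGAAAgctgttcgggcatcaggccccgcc
Ifnar1 (chr16:91485015-91485214, plus strand): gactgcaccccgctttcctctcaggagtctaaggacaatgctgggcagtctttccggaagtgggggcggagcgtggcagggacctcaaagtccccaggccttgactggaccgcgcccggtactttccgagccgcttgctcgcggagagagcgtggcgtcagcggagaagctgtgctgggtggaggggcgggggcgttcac
In the Isg15 sequence the matches begin 78, 72 and 66 bases before the start and overlap each other. In Ifit1 they begin at 104 and 85, in Oas1a at 20 and 14, and in Igtp at 34 bases before it. Those of Ifit3 begin 156 and 122 bases before its start, and those of Ifit3b 188 and 154 before its own. A match of letters does not show that a factor binds there.

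Against naive cells the receptor chains moved in opposite directions in the tumour, and against effector cells both were lower. Ifnar1 (ENSMUSG00000022967.13, chromosome 16, 91485238 to 91507441, GRCm38 as for all positions here) and Ifnar2 (ENSMUSG00000022971.18, chromosome 16, 91372783 to 91405589) lie in neighbouring stretches of one chromosome and encode the 2 chains of the receptor. Ifnar1 stood at 222, 197 and 219.5 CPM in naive and at 466, 516 and 473 CPM in effector libraries. In tumours, Ifnar1 stood at 347, 291 and 354 CPM at day 4 and at 364, 300.2 and 356 CPM at day 14. The groups other than the 2 tumour groups did not overlap with any other, with naive lowest and effector highest. Ifnar1 rose in effector cells (log2 fold change 1.19 with SE 0.10, adjusted p = 4.6e-07 by edgeR) and in day 4 cells (log2 fold change 0.64 with SE 0.10, adjusted p = 3.13e-05 by edgeR) against naive, and was higher at day 14 than in naive cells (log2 fold change 0.68 with SE 0.10, adjusted p = 1.72e-05 by edgeR). Against effector cells Ifnar1 was lower at day 4 (log2 fold change -0.55 with SE 0.10, adjusted p = 0.000118 by edgeR) and at day 14 (log2 fold change -0.51 with SE 0.10, adjusted p = 0.000251 by edgeR). Ifnar2 stood at 59.6, 55.3 and 43.7 CPM in naive and at 91.02, 132 and 107 CPM in effector libraries. In tumours, Ifnar2 stood at 33.1, 33.8 and 27.99 CPM at day 4 and at 23.6, 18.2 and 28.9 CPM at day 14. Its effector libraries were the highest, and all tumour libraries were below all naive ones. Ifnar2 rose in effector cells (log2 fold change 1.06 with SE 0.17, adjusted p = 0.000363 by edgeR) and fell in day 4 (log2 fold change -0.74 with SE 0.17, adjusted p = 0.00166 by edgeR) and day 14 cells (log2 fold change -1.17 with SE 0.17, adjusted p = 3.54e-05 by edgeR) against naive. It was also lower than in effector cells at day 4 (log2 fold change -1.80 with SE 0.17, adjusted p = 3.69e-07 by edgeR) and day 14 (log2 fold change -2.22 with SE 0.18, adjusted p = 4.82e-08 by edgeR). Exons of Ifnar2 overlap those of the read-through model Gm21970 over 315 bases, where reads cannot be assigned to one of them.

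The transducers fell at day 4. Stat2 (ENSMUSG00000040033.16, chromosome 10, 128270559 to 128292849) and Irf9 (ENSMUSG00000002325.15, chromosome 14, 55603571 to 55610030) encode members of the transcription factor complex of the pathway, and Irf7 (ENSMUSG00000025498.15, chromosome 7, 141262706 to 141266481) a factor that amplifies interferon production. Stat2 stood at 78.6, 156 and 99.05 CPM in naive and at 133, 220.5 and 162 CPM in effector libraries. In tumours, Stat2 stood at 56.2, 50.2 and 52.5 CPM at day 4 and at 83.1, 71.96 and 76.7 CPM at day 14. The day 4 libraries were below all others, and the naive range covered the day 14 one only in part. Stat2 fell from naive to day 4 (log2 fold change -1.07 with SE 0.24, adjusted p = 0.00235 by edgeR), and its effector libraries were called higher than naive ones only without naive replicate 2, effector replicate 1 or by DESeq2 (log2 fold change 0.63, SE 0.23, edgeR adjusted p = 0.0751 with all libraries). Irf9 stood at 94.8, 134 and 123 CPM in naive and at 135, 159 and 114 CPM in effector libraries. In tumours, Irf9 stood at 42.1, 30.9 and 36.1 CPM at day 4 and at 59.95, 53.03 and 63.03 CPM at day 14. Naive and effector libraries overlapped, day 14 libraries lay below them and day 4 libraries lowest. Irf9 fell at day 4 (log2 fold change -1.69 with SE 0.15, adjusted p = 1.26e-07 by edgeR) and rose from day 4 to day 14 (log2 fold change 0.69 with SE 0.15, adjusted p = 0.00615 by edgeR). Irf7 stood at 72.1, 125 and 95.2 CPM in naive and at 41.99, 67.9 and 39.99 CPM in effector libraries. In tumours, Irf7 stood at 12.9, 16.2 and 17.8 CPM at day 4 and at 22.7, 20.9 and 22.2 CPM at day 14. Its naive libraries were the highest, effector ones lay below them, and those of both tumour groups were lower still. Irf7 fell in effector (log2 fold change -0.96 with SE 0.22, adjusted p = 0.00562 by edgeR) and further in day 4 cells against naive (log2 fold change -2.63 with SE 0.23, adjusted p = 4.29e-07 by edgeR).

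**Figure D4:**
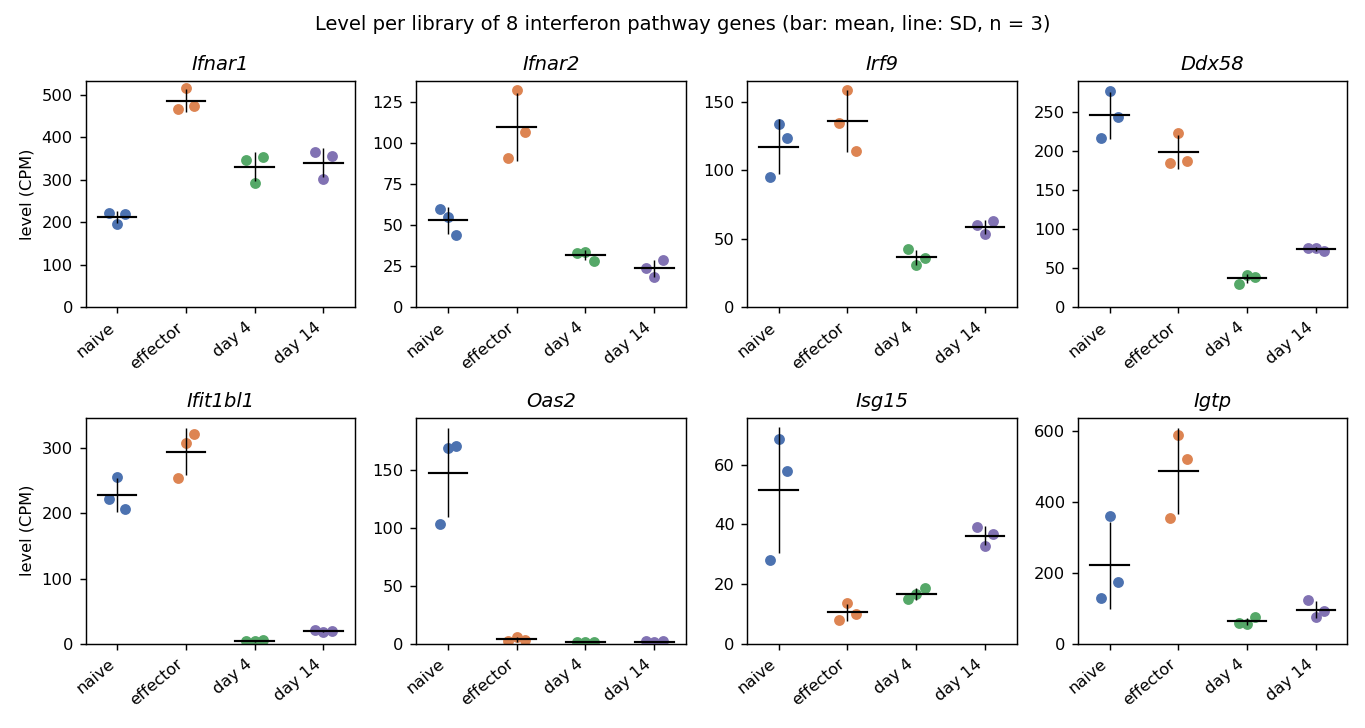
Level in CPM (vertical axes, from 0) of 8 genes of the pathway in each library, by group (horizontal axes); points are libraries, the horizontal bar is the mean and the vertical line the SD of 3 libraries. Ifnar1 is lowest in naive cells, Ifnar2 lowest in tumour cells, Oas2 high in naive cells alone among the 4 groups, and Isg15 lowest in effector cells, while Irf9, Ddx58, Ifit1bl1 and Igtp are lowest at day 4.

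Of the 5 sensors of foreign nucleic acid, Ddx58, Dhx58 and Zbp1 fell at day 4 against naive cells, and Ddx58 and Zbp1 rose from day 4 to day 14. Ddx58 (ENSMUSG00000040296.15, chromosome 4, 40203773 to 40239828) encodes RIG-I, a cytosolic sensor of viral RNA, and Zbp1 (ENSMUSG00000027514.14, chromosome 2, 173206612 to 173218923) a sensor of Z-form nucleic acid that can start necroptosis. Eif2ak2 (ENSMUSG00000024079.4, chromosome 17, 78852564 to 78882573) encodes PKR, which binds double-stranded RNA and shuts down translation. Ddx58 stood at 216, 277 and 243 CPM in naive and at 184, 223 and 188 CPM in effector libraries. In tumours, Ddx58 stood at 30, 40.97 and 38.95 CPM at day 4 and at 76.2, 75.9 and 71.6 CPM at day 14. No day 4 library reached a day 14 one, and no tumour library reached a naive or effector one. Ddx58 fell at day 4 against naive (log2 fold change -2.74 with SE 0.13, adjusted p = 4.01e-11 by edgeR) and rose from day 4 to day 14 (log2 fold change 1.02 with SE 0.12, adjusted p = 4.68e-05 by edgeR), to a level still below naive (log2 fold change -1.72 with SE 0.12, adjusted p = 4.87e-09 by edgeR). Zbp1 stood at 227, 495 and 286 CPM in naive and at 306, 497 and 302 CPM in effector libraries. In tumours, Zbp1 stood at 45.7, 51.2 and 65.01 CPM at day 4 and at 173, 119 and 143 CPM at day 14. Its day 4 libraries were the lowest and the day 14 ones lay between them and the naive ones. Zbp1 fell at day 4 (log2 fold change -2.64 with SE 0.34, adjusted p = 0.000117 by edgeR) and rose from day 4 to day 14 (log2 fold change 1.42 with SE 0.33, adjusted p = 0.0226 by edgeR), a call that was lost without day 4 replicates 1 or 2 or day 14 replicates 1 or 3 (adjusted p from 0.06 to 0.0946). Eif2ak2 stood at 158, 214 and 158 CPM in naive and at 119.7, 188 and 126 CPM in effector libraries. In tumours, Eif2ak2 stood at 133, 143 and 158 CPM at day 4 and at 175, 179 and 167 CPM at day 14. Every group overlapped with at least 1 other, and none of the 6 contrasts passed the test. Ifih1, which encodes the RNA sensor MDA5, averaged 58.5 ± 5.22 CPM in naive cells, 32.1 ± 9.397 in effector cells, 49.4 ± 15.4 at day 4 and 43.2 ± 4.64 at day 14 (SD, n = 3 libraries), and fell in effector cells (log2 fold change -0.87 with SE 0.22, adjusted p = 0.0111 by edgeR). Its higher level at day 4 than in effector cells (log2 fold change 0.63 with SE 0.22, adjusted p = 0.0235 by edgeR) was not called without effector replicates 1 or 3 or day 4 replicate 2 (adjusted p from 0.0646 to 0.0811) and in a fit of the compared groups alone (adjusted p = 0.0579); Ifih1 was singled out after its values were seen. Dhx58, which encodes LGP2, a relative of both RNA sensors, averaged 33.9 ± 7.73, 29.4 ± 11.93, 12.2 ± 1.88 and 19.7 ± 2.66 CPM in the same order.

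The IFIT family, whose proteins bind foreign RNA ends and block their translation, was low in the tumour. All 5 members fell at both tumour times against naive and against effector cells (all genes: 28.4% to 29.2% lower), and 4 of 5 rose from day 4 to day 14 (all genes: 7.17%). The 5 genes lie together on chromosome 19 between 34550694 and 34650009. Ifit1bl1 (ENSMUSG00000079339.7) stood at 221, 256 and 206 CPM in naive and at 253, 308 and 321 CPM in effector libraries. In tumours, Ifit1bl1 stood at 3.89, 4.03 and 6.21 CPM at day 4 and at 21.4, 18.8 and 19.7 CPM at day 14. The lowest naive or effector library held 206.5 CPM and the highest tumour library 21.4 CPM, and the tumour groups did not overlap. Ifit1bl1 fell at day 4 (log2 fold change -5.59 with SE 0.17, adjusted p = 7.14e-13 by edgeR) and rose from day 4 to day 14 (log2 fold change 2.08 with SE 0.16, adjusted p = 1.27e-06 by edgeR), where it remained far below effector cells (log2 fold change -3.88 with SE 0.15, adjusted p = 8.61e-12 by edgeR). Its rise in effector cells against naive was small (log2 fold change 0.37 with SE 0.13, adjusted p = 0.0499 by edgeR) and was lost without naive replicates 1 or 3 or effector replicates 2 or 3 or day 4 replicate 2 or day 14 replicates 1, 2 or 3 (adjusted p from 0.0517 to 0.215), with total counts as scaling (adjusted p = 0.213), with RLE size factors (adjusted p = 0.0652) and with the replicate block (adjusted p = 0.0639). Ifit2 (ENSMUSG00000045932.12) stood at 64.96, 73.1 and 77.6 CPM in naive and at 70.8, 99.01 and 66.2 CPM in effector libraries. In tumours, Ifit2 stood at 18.5, 23.01 and 21.9 CPM at day 4 and at 40.3, 33.2 and 36.5 CPM at day 14. Naive and effector libraries overlapped, and the day 14 ones lay between them and the day 4 ones. Ifit2 fell at day 4 (log2 fold change -1.76 with SE 0.15, adjusted p = 3.87e-08 by edgeR) and rose to day 14 (log2 fold change 0.79 with SE 0.15, adjusted p = 0.00182 by edgeR). Ifit3 (ENSMUSG00000074896.3) stood at 39.6, 88.8 and 52.7 CPM in naive and at 20.8, 34.1 and 12.4 CPM in effector libraries. In tumours, Ifit3 stood at 2.35, 2.34 and 4.01 CPM at day 4 and at 13.6, 7.11 and 10.7 CPM at day 14. Its groups stepped down from naive to effector to day 4, with effector replicate 3 within the day 14 range. Ifit3 fell in day 4 cells against naive (log2 fold change -4.38 with SE 0.48, adjusted p = 1.81e-05 by edgeR) and rose from day 4 to day 14 (log2 fold change 1.84 with SE 0.47, adjusted p = 0.0293 by edgeR), the latter call being lost without day 4 replicates 1 or 2 or day 14 replicates 1 or 3 (adjusted p from 0.0805 to 0.125) and without the filter on low counts (adjusted p = 0.088). Its fall in effector cells (log2 fold change -1.43 with SE 0.41, adjusted p = 0.0275 by edgeR) was lost without naive replicate 2 or effector replicates 1 or 3 (adjusted p from 0.0613 to 0.0815), without the filter on low counts (adjusted p = 0.0803) and in a fit of the compared groups alone (adjusted p = 0.0991). Its lower level at day 14 than in effector cells (log2 fold change -1.10 with SE 0.42, adjusted p = 0.0418 by edgeR) was not called without naive replicate 3 or effector replicates 1 or 2 or day 4 replicates 1, 2 or 3 or day 14 replicates 2 or 3 (adjusted p from 0.0529 to 0.161), with total counts as scaling (adjusted p = 0.0505), with RLE size factors (adjusted p = 0.0503), without the filter on low counts (adjusted p = 0.133) and with the replicate block (adjusted p = 0.0799). Ifit3b (ENSMUSG00000062488.9) stood at 13.6, 21.5 and 13.2 CPM in naive and at 4.03, 5.93 and 2.55 CPM in effector libraries. In tumours, Ifit3b stood at 0.513, 0.481 and 0.534 CPM at day 4 and at 2.51, 1.35 and 0.787 CPM at day 14. It had the same order of groups, with at most 0.534 CPM in a day 4 library. Ifit3b fell in effector (log2 fold change -1.95 with SE 0.37, adjusted p = 0.00107 by edgeR) and day 4 cells (log2 fold change -4.96 with SE 0.46, adjusted p = 1.02e-07 by edgeR), and its rise to day 14 (log2 fold change 1.58 with SE 0.48, adjusted p = 0.0416 by edgeR) was lost without naive replicates 1 or 3 or effector replicate 1 or day 4 replicates 1, 2 or 3 or day 14 replicates 1 or 2 (adjusted p from 0.0509 to 0.222) and in a fit of the compared groups alone (adjusted p = 0.096). Ifit3 and Ifit3b share 51.2% and 44.95% of their 50-base windows with each other, and reads that mapped to both were not counted, so their levels are uncertain. Ifit1, given without library values, fell from 53.8 ± 20.2 CPM in naive to 2.74 ± 1.21 CPM in day 4 cells (log2 fold change -4.28 with SE 0.50, adjusted p = 3.15e-05 by edgeR).

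The OAS family is named for enzymes that make the oligoadenylates that activate RNase L. The listed genes of the family split in effector cells: 4 of 5 fell against naive (all genes: 10.4%) and Oas3 did not pass the test. All 5 fell at both tumour times against naive (all genes: 28.8% and 28.5%). The 5 lie on chromosome 5. Oas2 (ENSMUSG00000032690.16, chromosome 5, 120730333 to 120749853) stood at 104, 168 and 171 CPM in naive and at 2.37, 6.11 and 2.86 CPM in effector libraries. In tumours, Oas2 stood at 1.83, 1.68 and 1.67 CPM at day 4 and at 2.38, 1.47 and 1.998 CPM at day 14. The lowest naive library was far above the highest of all others, effector replicate 2. Oas2 fell in effector (log2 fold change -5.31 with SE 0.32, adjusted p = 3.49e-07 by edgeR), day 4 (log2 fold change -6.41 with SE 0.34, adjusted p = 7.15e-09 by edgeR) and day 14 cells (log2 fold change -6.25 with SE 0.34, adjusted p = 8.11e-09 by edgeR) against naive. Oas3 (ENSMUSG00000032661.9, chromosome 5, 120753098 to 120777661) stood at 66.7, 101 and 90.02 CPM in naive and at 50.9, 105 and 93.2 CPM in effector libraries. In tumours, Oas3 stood at 4.84, 10.03 and 4.94 CPM at day 4 and at 11.4, 9.52 and 16.7 CPM at day 14. Its effector libraries lay around the naive range, and all tumour libraries were far below both. Oas3 fell at day 4 against naive (log2 fold change -3.69 with SE 0.39, adjusted p = 1.9e-05 by edgeR) and was lower at day 14 than in effector cells (log2 fold change -2.73 with SE 0.37, adjusted p = 0.000115 by edgeR). Oasl2 (ENSMUSG00000029561.17, chromosome 5, 114896936 to 114912234) stood at 54.8, 93.9 and 68.3 CPM in naive and at 0.647, 4.903 and 0.464 CPM in effector libraries. In tumours, Oasl2 stood at 3.74, 4.21 and 2.405 CPM at day 4 and at 5.88, 3.23 and 4.66 CPM at day 14. Naive libraries were far above all others, and effector replicate 2 was above the other effector libraries. Oasl2 fell in effector cells against naive (log2 fold change -5.22 with SE 0.68, adjusted p = 0.000538 by edgeR; log2 fold change -6.99 without effector replicate 2) and in day 4 cells (log2 fold change -4.38 with SE 0.63, adjusted p = 0.000215 by edgeR). Oasl1 (ENSMUSG00000041827.15, chromosome 5, 114923240 to 114937915) stood at 9.98, 12.03 and 19.3 CPM in naive and at 0.431, 0 and 0.541 CPM in effector libraries. In tumours, Oasl1 stood at 0.293, 0.3604 and 0.869 CPM at day 4 and at 1.39, 0.176 and 0.666 CPM at day 14. The naive libraries held 135 to 252 counts and no other library more than 21, with 0 in effector replicate 2. Oasl1 fell in effector (log2 fold change -5.33 with SE 0.71, adjusted p = 7.39e-05 by edgeR) and day 4 cells (log2 fold change -4.74 with SE 0.66, adjusted p = 1.82e-05 by edgeR; log2 fold change -5.33 without day 4 replicate 3) against naive. Oas1a averaged 26.7 ± 7.86 CPM in naive cells, 10.4 ± 5.39 in effector cells, 5.24 ± 0.858 at day 4 and 13.1 ± 3.33 at day 14 (SD, n = 3 libraries). It fell in effector cells (log2 fold change -1.37 with SE 0.32, adjusted p = 0.00551 by edgeR), and its rise from day 4 to day 14 (log2 fold change 1.32 with SE 0.33, adjusted p = 0.0154 by edgeR) was lost without day 4 replicates 1 or 2 or day 14 replicate 1 (adjusted p from 0.055 to 0.0755). Oas1a shares 57.6% of its 50-base windows, most with Oas1g, so its level is uncertain.

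Other antiviral effectors differed among themselves at day 14. The Mx genes (ENSMUSG00000000386.16, chromosome 16, 97447035 to 97462907 for Mx1 and ENSMUSG00000023341.15, chromosome 16, 97535308 to 97560900 for Mx2) belong to a family of dynamin-like GTPases. The annotation lists Mx1 as protein coding and Mx2 as a polymorphic pseudogene. Whether these cells made a working protein from either gene was not tested. Mx1 stood at 18.8, 39.3 and 50.7 CPM in naive and at 11.3, 25.3 and 15.2 CPM in effector libraries. In tumours, Mx1 stood at 6.82, 10.2 and 11.4 CPM at day 4 and at 28.1, 18.8 and 23.8 CPM at day 14. Its day 4 libraries were the lowest group but for 1 effector library, and day 14 libraries lay within the naive range apart from the lowest. Mx1 fell at day 4 against naive (log2 fold change -1.93 with SE 0.39, adjusted p = 0.00111 by edgeR), and its rise from day 4 to day 14 (log2 fold change 1.31 with SE 0.38, adjusted p = 0.0488 by edgeR) was lost without naive replicate 2 or effector replicate 3 or day 4 replicates 1, 2 or 3 or day 14 replicates 1, 2 or 3 (adjusted p from 0.0692 to 0.179) and with RLE size factors (adjusted p = 0.0508). Mx2 stood at 8.42, 14.5 and 16.4 CPM in naive and at 1.08, 1.204 and 0.232 CPM in effector libraries. In tumours, Mx2 stood at 2.27, 1.56 and 2.54 CPM at day 4 and at 4.29, 1.65 and 3.21 CPM at day 14. Naive libraries were the highest and effector libraries the lowest of the groups, without overlap. Mx2 fell in effector cells against naive (log2 fold change -3.96 with SE 0.49, adjusted p = 2.39e-05 by edgeR) and was higher at day 14 than in effector cells (log2 fold change 1.85 with SE 0.49, adjusted p = 0.00382 by edgeR). Its level at day 4 was above effector (log2 fold change 1.33 with SE 0.50, adjusted p = 0.0296 by edgeR), a call lost without effector replicate 3 or day 4 replicates 1 or 3 (adjusted p from 0.0614 to 0.101) and in a fit of the compared groups alone (adjusted p = 0.0536). Isg20 (ENSMUSG00000039236.18, chromosome 7, 78913424 to 78920396) encodes an exonuclease that degrades single-stranded RNA. It stood at 17.3, 21.1 and 18.2 CPM in naive and at 20.1, 25.5 and 18.3 CPM in effector libraries. In tumours, Isg20 stood at 15.3, 20 and 16.4 CPM at day 4 and at 39.1, 31.3 and 32.9 CPM at day 14. The day 14 libraries were above all others, which overlapped. Isg20 was higher at day 14 than in naive (log2 fold change 0.87 with SE 0.16, adjusted p = 0.000234 by edgeR), effector (log2 fold change 0.70 with SE 0.16, adjusted p = 0.00151 by edgeR) and day 4 cells (log2 fold change 0.99 with SE 0.16, adjusted p = 0.000665 by edgeR). Bst2 (ENSMUSG00000046718.8, chromosome 8, 71534255 to 71537456) encodes tetherin, which holds budding virions at the cell surface. It stood at 18.2, 32.02 and 25.6 CPM in naive and at 14.3, 19.4 and 16.1 CPM in effector libraries. In tumours, Bst2 stood at 14.1, 15.1 and 18.2 CPM at day 4 and at 21.3, 16.5 and 22.2 CPM at day 14. The ranges of all other groups overlapped with the naive one. Bst2 fell in effector (log2 fold change -0.61 with SE 0.20, adjusted p = 0.0381 by edgeR) and day 4 cells (log2 fold change -0.68 with SE 0.20, adjusted p = 0.00839 by edgeR) against naive, but the first call was lost without naive replicates 2 or 3 or effector replicates 1 or 3 (adjusted p from 0.0748 to 0.217) and the second without naive replicate 2 (adjusted p = 0.0775). Rsad2, which encodes the antiviral enzyme viperin, and Cmpk2, a mitochondrial nucleotide kinase gene, fell at day 4 against naive with log2 fold changes of -2.54 (SE 0.51, edgeR adjusted p = 8e-04) and -2.87 (SE 0.39, edgeR adjusted p = 3.52e-05).

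ISG15 and the ubiquitin and PARP enzymes all fell at day 4 (7 of 7 against naive; all genes: 28.8%), and 5 of 7 rose from day 4 to day 14 (all genes: 7.17%). Isg15 (ENSMUSG00000035692.7, chromosome 4, 156199424 to 156200818) encodes a ubiquitin-like protein that is attached to other proteins after interferon. It stood at 28.1, 68.6 and 57.8 CPM in naive and at 8.05, 13.7 and 10.1 CPM in effector libraries. In tumours, Isg15 stood at 14.9, 16.5 and 18.8 CPM at day 4 and at 39.02, 32.8 and 36.9 CPM at day 14. The effector libraries were below all others, the day 4 ones came next, and the day 14 ones lay within the naive range. Isg15 fell in effector (log2 fold change -2.28 with SE 0.28, adjusted p = 8.59e-05 by edgeR) and day 4 cells (log2 fold change -1.62 with SE 0.27, adjusted p = 0.000191 by edgeR) against naive and was higher at day 14 than in effector cells (log2 fold change 1.77 with SE 0.28, adjusted p = 0.000118 by edgeR). Its rise from day 4 to day 14 (log2 fold change 1.11 with SE 0.27, adjusted p = 0.017 by edgeR) was lost without day 4 replicates 1 or 2 or day 14 replicate 1 (adjusted p from 0.0605 to 0.088). Usp18, which encodes the protease that removes ISG15 and also restrains signalling at IFNAR2, averaged 46.4 ± 8.52 CPM in naive cells, 11.3 ± 3.45 in effector cells, 3.62 ± 0.623 at day 4 and 3.69 ± 0.4101 at day 14 (SD, n = 3 libraries). It fell in effector (log2 fold change -2.04 with SE 0.22, adjusted p = 6.81e-06 by edgeR) and day 4 cells (log2 fold change -3.67 with SE 0.24, adjusted p = 2.05e-09 by edgeR), and the ranges of the 2 tumour groups overlapped; it was singled out after its values were seen. Herc6, a ligase gene for ISG15 in the mouse, fell in effector cells (log2 fold change -0.54 with SE 0.14, adjusted p = 0.00973 by edgeR) and rose from day 4 to day 14 (log2 fold change 0.65 with SE 0.14, adjusted p = 0.00601 by edgeR). Of its exon bases, 1269 overlap the model Gm45193.

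Among the PARP and TRIM genes, Parp14 (ENSMUSG00000034422.14, chromosome 16, 35832874 to 35871544) encodes an ADP-ribosyltransferase, Dtx3l (ENSMUSG00000049502.17, chromosome 16, 35926511 to 35939151) a ubiquitin ligase that works with PARP9, and Trim30a (ENSMUSG00000030921.17, chromosome 7, 104409025 to 104465193) a ligase of the TRIM family. Parp14 stood at 279, 455 and 323 CPM in naive and at 371, 552 and 425 CPM in effector libraries. In tumours, Parp14 stood at 148, 187 and 159 CPM at day 4 and at 285, 254 and 237 CPM at day 14. Day 4 libraries were the lowest, and the day 14 ones reached the naive range in 1 library. Parp14 fell at day 4 against naive (log2 fold change -1.10 with SE 0.18, adjusted p = 0.000261 by edgeR), and its rise to day 14 (log2 fold change 0.65 with SE 0.18, adjusted p = 0.0396 by edgeR) was lost without naive replicate 3 or effector replicate 3 or day 4 replicates 1, 2 or 3 or day 14 replicates 1, 2 or 3 (adjusted p from 0.0515 to 0.146) and with total counts as scaling (adjusted p = 0.0579). Dtx3l stood at 229, 384 and 264 CPM in naive and at 351, 451 and 400 CPM in effector libraries. In tumours, Dtx3l stood at 78.3, 88.1 and 80.3 CPM at day 4 and at 122, 121 and 122 CPM at day 14. The 3 day 14 libraries were nearly equal, above day 4 and below all naive and effector libraries. Dtx3l fell at day 4 (log2 fold change -1.83 with SE 0.15, adjusted p = 1.54e-07 by edgeR); its rise to day 14 (log2 fold change 0.57 with SE 0.15, adjusted p = 0.025 by edgeR) was lost without day 4 replicates 1, 2 or 3 or day 14 replicates 1, 2 or 3 (adjusted p from 0.0566 to 0.104), and its rise in effector cells (log2 fold change 0.46 with SE 0.15, adjusted p = 0.0381 by edgeR) without naive replicates 1 or 3 or effector replicates 2 or 3 or day 4 replicates 2 or 3 or day 14 replicates 1 or 2 (adjusted p from 0.0677 to 0.14), with total counts as scaling (adjusted p = 0.155) and in a fit of the compared groups alone (adjusted p = 0.186). Trim30a stood at 482, 615 and 496 CPM in naive and at 555, 681 and 521 CPM in effector libraries. In tumours, Trim30a stood at 150.4, 160.5 and 165 CPM at day 4 and at 219.5, 208 and 219 CPM at day 14. Naive and effector libraries overlapped, and the tumour groups lay below them without overlap. Trim30a fell at day 4 (log2 fold change -1.75 with SE 0.11, adjusted p = 1.15e-09 by edgeR) and rose to day 14 (log2 fold change 0.44 with SE 0.11, adjusted p = 0.0114 by edgeR), a call lost without day 4 replicate 1 (adjusted p = 0.0606). Parp9, whose exons overlap those of Dtx3l over 458 bases, averaged 119 ± 31.1, 127 ± 20.8, 53.6 ± 3.79 and 65.8 ± 11.8 CPM in naive, effector, day 4 and day 14 libraries (SD, n = 3).

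The GBP and IRG GTPases coat and break vacuoles that hold pathogens and answer to interferon gamma as well. Their highest group mean was in effector cells in 5 of 6 cases (all genes: 25.7%). Only 1 of the 6, Gbp3, was called higher in effector than in naive cells (all genes: 14.6%), and its highest mean was at day 14. Against effector cells 6 of 6 fell at day 4 (all genes: 29.2%), and against naive cells 5 of 6 did (all genes: 28.8%). Per kilobase of exon, Ifi47 and Igtp had the highest mean level of the 45 genes over all libraries, 108.0 and 107.7 CPM per kilobase. Igtp (ENSMUSG00000078853.8, chromosome 11, 58199556 to 58207591) stood at 129, 362 and 174 CPM in naive and at 354, 590 and 523 CPM in effector libraries. In tumours, Igtp stood at 60.1, 56.2 and 74.5 CPM at day 4 and at 124, 74.5 and 91.4 CPM at day 14. Effector libraries were the highest but for naive replicate 2, and all tumour libraries were below all naive ones. Igtp fell at day 4 against naive (log2 fold change -1.80 with SE 0.40, adjusted p = 0.00368 by edgeR) and was lower at day 14 than in effector cells (log2 fold change -2.34 with SE 0.40, adjusted p = 0.00089 by edgeR). Irgm1 (ENSMUSG00000046879.7, chromosome 11, 48861968 to 48871683) stood at 63.8, 149 and 78.5 CPM in naive and at 151, 177 and 171 CPM in effector libraries. In tumours, Irgm1 stood at 14.01, 20.1 and 14.7 CPM at day 4 and at 41.5, 25.6 and 19.6 CPM at day 14. Naive replicate 2 lay close to the effector libraries, the other naive libraries lay lower, and tumour libraries were lowest. Irgm1 fell at day 4 against naive (log2 fold change -2.57 with SE 0.38, adjusted p = 0.000255 by edgeR) and was lower at day 14 than in effector cells (log2 fold change -2.53 with SE 0.37, adjusted p = 0.000256 by edgeR). Neither Igtp nor Irgm1 passed the test in effector against naive cells (log2 fold changes 1.14, SE 0.39, and 0.78, SE 0.35; edgeR adjusted p = 0.0628 and 0.14), and without naive replicate 2 both did (1.70 and 1.23, adjusted p = 0.00217 and 0.00875). Ifi47 (ENSMUSG00000078920.3, chromosome 11, 49076587 to 49096974) stood at 238, 464 and 321 CPM in naive and at 447, 486 and 487 CPM in effector libraries. In tumours, Ifi47 stood at 97.9, 99.5 and 117 CPM at day 4 and at 169, 133 and 145 CPM at day 14. It was lower in every tumour library than in every other library and fell at day 4 against naive (log2 fold change -1.70 with SE 0.20, adjusted p = 1.27e-05 by edgeR).

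Gbp7 (ENSMUSG00000040253.15, chromosome 3, 142530342 to 142550149) and Gbp3 (ENSMUSG00000028268.14, chromosome 3, 142560026 to 142573209) lie in the GBP cluster of chromosome 3 and encode guanylate-binding proteins. Gbp7 stood at 216, 418 and 239 CPM in naive and at 248.8, 386 and 272 CPM in effector libraries. In tumours, Gbp7 stood at 66.9, 91.1 and 103 CPM at day 4 and at 223, 207 and 181 CPM at day 14. Day 4 libraries were below all others, and those of day 14 overlapped with naive ones. Gbp7 fell at day 4 (log2 fold change -1.74 with SE 0.28, adjusted p = 0.000436 by edgeR), and its rise to day 14 (log2 fold change 1.23 with SE 0.28, adjusted p = 0.0193 by edgeR) was lost without day 4 replicates 1 or 2 or day 14 replicates 1 or 2 (adjusted p from 0.0669 to 0.0771). Gbp3 stood at 24.5, 56.4 and 26.2 CPM in naive and at 70.7, 131 and 75.3 CPM in effector libraries. In tumours, Gbp3 stood at 55.2, 49.6 and 50.4 CPM at day 4 and at 94.9, 93.5 and 88.8 CPM at day 14. Effector and day 14 libraries were the highest, and naive replicate 2 was above the other naive libraries, near the day 4 ones. Gbp3 was higher at day 14 than in naive cells (log2 fold change 1.37 with SE 0.33, adjusted p = 0.00478 by edgeR) and rose in effector cells (log2 fold change 1.37 with SE 0.33, adjusted p = 0.0143 by edgeR), the latter call being lost without naive replicate 3 (adjusted p = 0.0505) and in a fit of the compared groups alone (adjusted p = 0.108). Its fall at day 4 against effector cells (log2 fold change -0.83 with SE 0.32, adjusted p = 0.0466 by edgeR) was lost without effector replicates 2 or 3 or day 4 replicates 1, 2 or 3 or day 14 replicates 1, 2 or 3 (adjusted p from 0.0614 to 0.161), with total counts as scaling (adjusted p = 0.0698), with RLE size factors (adjusted p = 0.0601) and without the filter on low counts (adjusted p = 0.138). Gbp2 averaged 108 ± 65.01 CPM in naive cells, 171 ± 68 in effector cells, 33.2 ± 2.28 at day 4 and 51.9 ± 12.3 at day 14 (SD, n = 3 libraries).

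**Figure D5:**
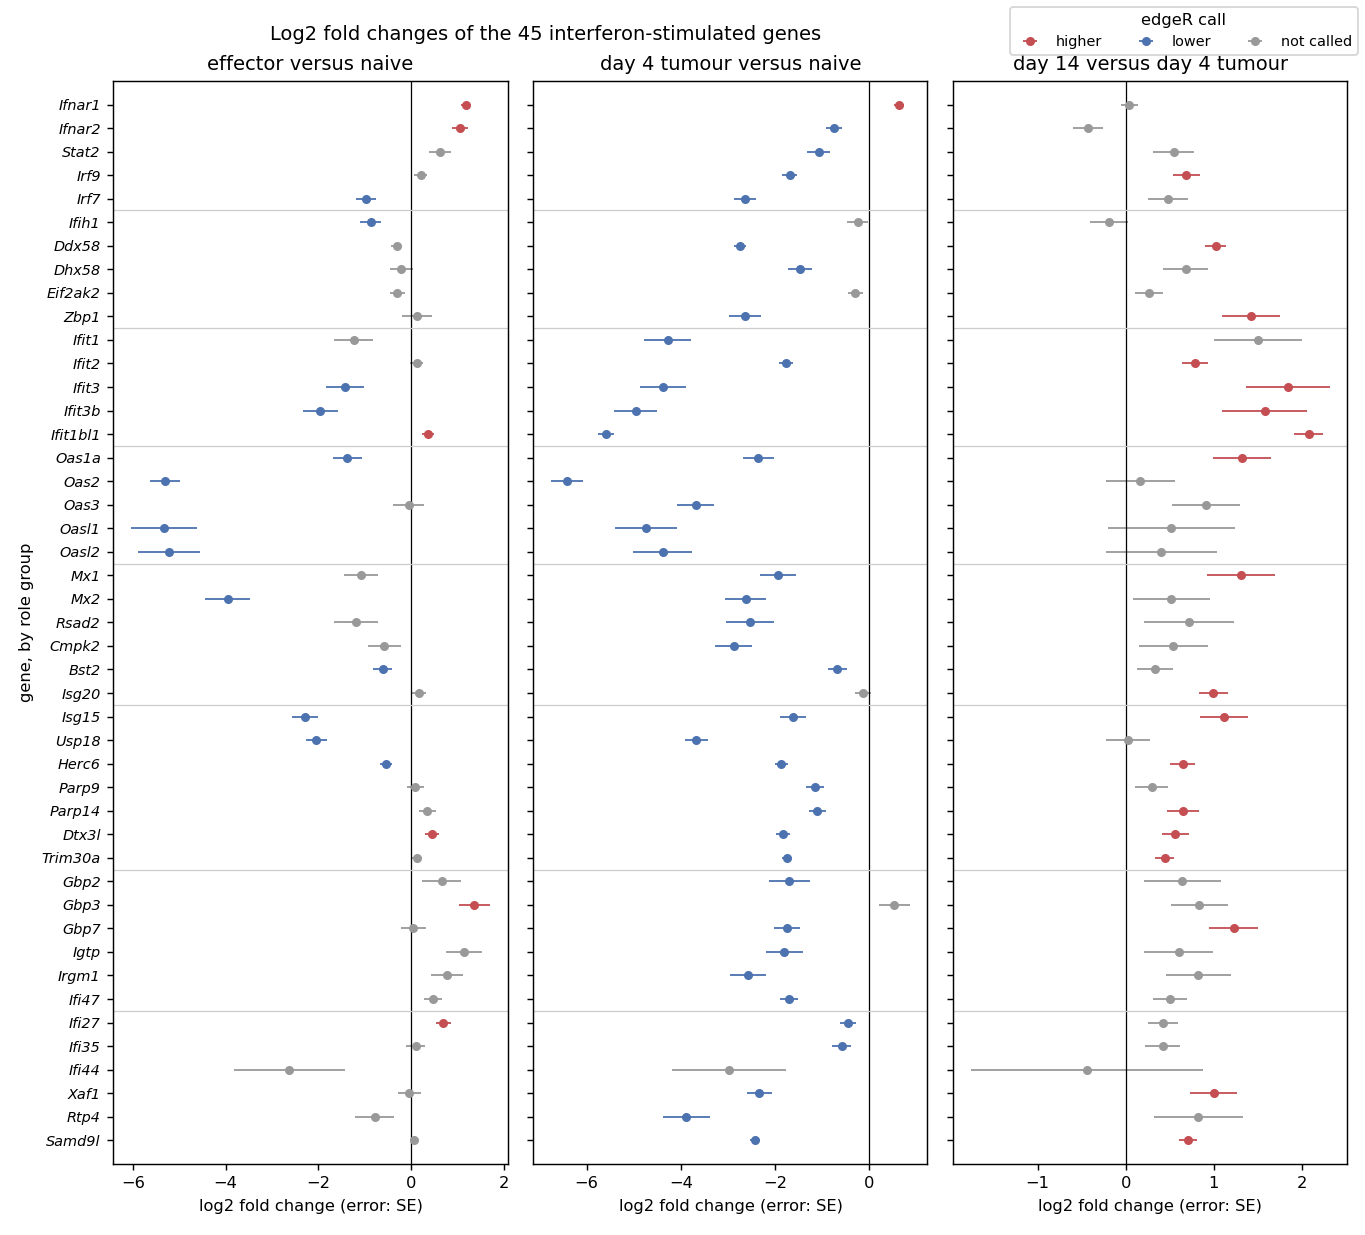
Log2 fold change (horizontal axes, error bars SE) of each of the 45 genes (vertical axis, by role group) in effector against naive, day 4 against naive and day 14 against day 4 cells; red and blue mark genes called higher and lower by edgeR. Of the 45 genes, 39 were called lower and 1 higher in the middle panel, and 18 higher and 0 lower in the right one.

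The other induced genes fell at day 4 against naive in 5 of 6 cases (all genes: 28.8%). Samd9l (ENSMUSG00000047735.14, chromosome 6, 3372257 to 3399572) encodes a brake on translation and growth, Xaf1 (ENSMUSG00000040483.15, chromosome 11, 72301629 to 72313733) a partner of the apoptosis inhibitor XIAP, and Ifi27 (ENSMUSG00000064215.13, chromosome 12, 103434211 to 103440239) a small membrane protein. Samd9l stood at 384, 387 and 460.4 CPM in naive and at 425, 427 and 445 CPM in effector libraries. In tumours, Samd9l stood at 65.9, 79 and 83.5 CPM at day 4 and at 135, 126 and 112 CPM at day 14. Naive and effector libraries overlapped at close levels, and the tumour groups lay below them without overlap. Samd9l fell at day 4 against naive (log2 fold change -2.43 with SE 0.11, adjusted p = 2.59e-11 by edgeR) and rose from day 4 to day 14 (log2 fold change 0.71 with SE 0.10, adjusted p = 0.000242 by edgeR). Xaf1 stood at 65.03, 106 and 84.2 CPM in naive and at 72.8, 109 and 67.6 CPM in effector libraries. In tumours, Xaf1 stood at 10.9, 18.9 and 20.9 CPM at day 4 and at 37.9, 30.5 and 33.4 CPM at day 14. It had the same order of groups, with effector replicate 2 and naive replicate 2 the highest. Xaf1 fell at day 4 (log2 fold change -2.33 with SE 0.27, adjusted p = 1.59e-05 by edgeR), and its rise to day 14 (log2 fold change 1.001 with SE 0.26, adjusted p = 0.0306 by edgeR) was lost without day 4 replicates 1 or 2 or day 14 replicates 1, 2 or 3 (adjusted p from 0.0632 to 0.109). Ifi27 stood at 60.1, 71.2 and 91.5 CPM in naive and at 89.4, 141 and 133 CPM in effector libraries. In tumours, Ifi27 stood at 52.96, 59.6 and 51.7 CPM at day 4 and at 67.4, 75.02 and 78.4 CPM at day 14. Its effector libraries were the highest apart from naive replicate 3, and day 4 libraries the lowest. Ifi27 rose in effector cells against naive (log2 fold change 0.70 with SE 0.17, adjusted p = 0.00677 by edgeR), and its fall at day 4 (log2 fold change -0.44 with SE 0.17, adjusted p = 0.0335 by edgeR) was lost without naive replicates 2 or 3 or day 4 replicates 1 or 3 or day 14 replicate 2 (adjusted p from 0.0516 to 0.216). Rtp4, which encodes a chaperone of G protein-coupled receptors, fell from 43.5 ± 18.1 CPM in naive to 2.94 ± 1.57 CPM in day 4 libraries (log2 fold change -3.88 with SE 0.50, adjusted p = 5.56e-05 by edgeR). Ifi35 averaged 16.2 ± 4.17, 17.4 ± 1.38, 10.8 ± 1.99 and 14.5 ± 0.833 CPM in naive, effector, day 4 and day 14 libraries (SD, n = 3). Ifi44 averaged 6.88 ± 4.67, 1.13 ± 1.08, 0.883 ± 0.707 and 0.653 ± 0.982 CPM in the same order, with 0 counts in effector replicate 1 and day 14 replicate 3.

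Genes of the pathway outside the 45 were examined by list. None of the 18 type I interferon ligand genes in the tables passed the filter on low counts, and Ifnb1 had 0 counts in all libraries. Of 13 other signalling genes, 5 rose and 2 fell in effector against naive cells (all genes: 14.6% and 10.4%), and 2 rose and 1 fell from day 4 to day 14 (all genes: 7.17% and 4.91%). Against naive, 4 rose and 4 fell at day 4 (all genes: 33.4% and 28.8%) and 6 rose and 4 fell at day 14 (all genes: 33.6% and 28.5%). Against effector cells, 5 rose and 8 fell at day 4 (all genes: 32.7% and 29.2%) and 5 rose and 4 fell at day 14 (all genes: 32.6% and 28.4%). Ifngr1, the ligand-binding chain of the interferon gamma receptor, averaged 155 ± 17.3 CPM in naive cells, 533 ± 61.4 in effector cells, 176 ± 25.7 at day 4 and 580.1 ± 44.7 at day 14 (SD, n = 3 libraries). It rose in effector cells against naive (log2 fold change 1.78 with SE 0.12, adjusted p = 6.14e-08 by edgeR) and again from day 4 to day 14 (log2 fold change 1.72 with SE 0.12, adjusted p = 3.05e-07 by edgeR). Ifngr2, the other chain, averaged 40.8 ± 6.73, 26.1 ± 6.24, 2.1 ± 0.605 and 3.03 ± 1.74 CPM in the same order and was lower at day 14 than in effector cells (log2 fold change -3.12 with SE 0.33, adjusted p = 1.9e-06 by edgeR). Jak1, the kinase gene shared by both receptors, averaged 1169 ± 35.5, 1497 ± 137, 510.2 ± 36.2 and 610.1 ± 23.6 CPM and fell at day 4 against naive (log2 fold change -1.20 with SE 0.08, adjusted p = 3.98e-09 by edgeR). Socs1, a feedback inhibitor of the kinases, rose in effector cells (log2 fold change 1.29 with SE 0.28, adjusted p = 0.00313 by edgeR).

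A second list held 57 further interferon-induced genes. Of these, 16 rose and 2 fell in effector against naive cells (all genes: 14.6% and 10.4%), and 8 rose and 36 fell at day 4 against naive (all genes: 33.4% and 28.8%). At day 14 against effector cells 9 rose and 38 fell (all genes: 32.6% and 28.4%), and from day 4 to day 14, 23 rose and 0 fell (all genes: 7.17% and 4.91%). In that last comparison DESeq2 called 26 higher and 0 lower (all genes: 1389 and 1051). At an unadjusted p under 0.05 edgeR had 27 and 1, and no number over all genes was taken at that threshold. Parp12, a PARP enzyme gene, averaged 21.9 ± 5.41 CPM in naive cells, 15.4 ± 2.98 in effector cells, 2.49 ± 0.803 at day 4 and 8.73 ± 2.302 at day 14 (SD, n = 3 libraries) and rose from day 4 to day 14 (log2 fold change 1.81 with SE 0.29, adjusted p = 0.00049 by edgeR). Ifi213, of the IFI200 family of DNA-binding proteins, rose as well (log2 fold change 1.24 with SE 0.15, adjusted p = 0.000128 by edgeR). Cxcl10, a chemokine gene that myeloid and tumour cells also express, was among those that went against the rest. It averaged 1.301 ± 1.15, 0.716 ± 0.802, 26.8 ± 6.73 and 30.4 ± 5.29 CPM in naive, effector, day 4 and day 14 libraries and was higher at day 14 than in effector cells (log2 fold change 5.45 with SE 0.62, adjusted p = 2.15e-05 by edgeR; log2 fold change 6.82 without effector replicate 2). The share of these Cxcl10 transcripts that came from other cells was not tested.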

How the data were processed

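RNA of 12 sorted OT-I T cell samples was taken on oligo(dT) beads, amplified as cDNA and made into tagmented libraries, per the labels' protocols. Each deposited table holds whole-number gene counts. The tools fastp 0.19.6 and STAR 2.6.1b and the build GRCm38 are named in the submitters' processing notes. How reads were counted, and on which annotation release, is not given in the sources used here. The deposited tables hold an unstranded count column and a column for each strand. Sense and antisense counts were near equal (49.8% to 49.9% sense), so the unstranded counts were used and overlapping genes cannot be told apart. Reads mapping to several places (5.90% to 7.29% per library) and ambiguous ones (3.22% to 3.81%) stood in separate lines, which were left out of library sizes. Symbols came from GENCODE M21 by identifier without version (55141 matched, 260 did not), and shared transcript sequence from windows of 50 bases.

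Counts were filtered with filterByExpr, scaled with TMM factors and fitted in edgeR 4.0.16 (R 4.3.3) with a robust quasi-likelihood model of the 12 libraries (8 residual degrees of freedom), with Benjamini-Hochberg adjustment over 16426 genes and a threshold of 0.05. No replicate block was used. Levels are CPM with TMM scaling. DESeq2 1.42.0, other scalings, no filter, fits of the compared groups alone, a replicate block and leaving out each library were alternatives. The procedure was run on simulated counts in which few genes changed, equally up and down, in the effector group alone. The same spread was set for every gene there. In the data, large shares of all genes were called in the tumour comparisons, so that simulation does not cover them. PCR reads without molecular identifiers are not independent molecules. The 45 members, the other lists and the naming rule were chosen with earlier results of these data known. By that rule, library values were given for 32 members: all receptor and transducer genes, the 3 most abundant of each other role group, and the 3 highest and 3 lowest log2 fold changes among called members in effector against naive, day 14 against effector and day 14 against day 4 cells. The other 13 were given by means.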

Additional observations from a re-analysis of the deposited data

How the results depend on the processing

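Of 162 log2 fold changes of named genes, recomputed under 18 alternatives (2916 values), 2765 kept their direction and side of the threshold, 145 kept their direction but passed the threshold no longer, 6 passed it newly and 0 reversed. The number of members called lower in effector cells than in each other group was 1 and became 2 with total counts as scaling, 2 with RLE size factors, 3 with DESeq2, 3 without the filter on low counts and 3 with the replicate block, and 0 to 4 when libraries were left out in turn. Without the filter, 5 members were called higher at day 14 than in effector cells (main count 3) and 1 lower at day 14 than at day 4 (main count 0). A fit of the compared groups alone called 1 higher at day 4 than in effector cells (main count 2), and 4933 over all genes (main count 5372). Leaving out libraries in turn gave 3 to 12 members higher in effector than in naive cells (all genes: 1850 to 2429) and 1 to 2 higher at day 4 than in naive (all genes: 5278 to 5774). It gave 0 to 4 higher at day 4 than in effector (all genes: 5227 to 5698) and 3 to 7 higher at day 14 than in effector (all genes: 5190 to 5608). At day 14 against day 4 it gave 7 to 20 higher (all genes: 750 to 1308) and 0 to 1 lower (all genes: 533 to 898). The cause of these differences was not tested; fewer libraries also leave fewer residual degrees of freedom. The labels number the libraries of each group 1 to 3, but deviations of same-numbered libraries from their group means were not correlated over 0.1 in 17 of 18 pairs (r from -0.088 to 0.102, and -0.077 to 0.088 for other pairs). The numbers were therefore not taken to pair the samples. With the replicate block, 39 members were lower at day 4 than in naive cells (main count 39) and 19 higher at day 14 than at day 4 (main count 18). In effector against naive cells, the SE was largest for Ifi44 (1.197), Oasl1 (0.706) and Oasl2 (0.679). Their counts in effector and naive libraries were 41 and 270 for Ifi44, 13 and 538 for Oasl1, and 72 and 2812 for Oasl2. The part of depth in these SEs was not tested.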

Other observations

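Genes of the pathway that induces interferon, a list of 21 of which 18 could be tested, had 4 genes that rose and 10 that fell at day 4 against naive (all genes: 33.4% and 28.8%), and 3 that rose and 2 that fell from day 4 to day 14 (all genes: 7.17% and 4.91%). Samhd1, which encodes a nucleotide hydrolase that limits retroviruses and is itself interferon-induced, averaged 798 ± 200.1 CPM in naive cells, 2372 ± 490.1 in effector cells, 172 ± 7.09 at day 4 and 309 ± 32.7 at day 14 (SD, n = 3 libraries). It rose in effector cells against naive (log2 fold change 1.57 with SE 0.17, adjusted p = 4.51e-05 by edgeR), was lower at day 14 than in effector cells (log2 fold change -2.94 with SE 0.18, adjusted p = 3.4e-08 by edgeR) and rose from day 4 to day 14 (log2 fold change 0.85 with SE 0.17, adjusted p = 0.00642 by edgeR). Irf8, a transcription factor gene of myeloid cells and activated lymphocytes, averaged 3.22 ± 2.32, 5.45 ± 3.44, 140.1 ± 9.098 and 111 ± 16.3 CPM in the same order and was higher at day 14 than in effector cells (log2 fold change 4.37 with SE 0.51, adjusted p = 6.76e-05 by edgeR). Tlr7, an endosomal sensor of single-stranded RNA, averaged 34.1 ± 5.35, 7.305 ± 5.29, 3.28 ± 0.883 and 1.695 ± 1.21 CPM and fell in effector cells against naive (log2 fold change -2.23 with SE 0.48, adjusted p = 0.00563 by edgeR; log2 fold change -2.999 without effector replicate 2). The endosomal sensor Tlr3 was at 0 counts in all effector libraries and at 1.33, 1.43 and 1.07 CPM in naive cells, 1.98, 3.42 and 2.21 at day 4 and 3.301, 0.941 and 0 in day 14 libraries. The myeloid marker sums given above were higher in tumour libraries, and their part in the Irf8 and Tlr3 values was not tested.

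Among interferon-induced genes outside the 45, Ifitm1, which encodes a membrane protein that blocks viral entry, was at 1.87, 31.5 and 0.696 CPM in the effector libraries and at 0.0739, 0.159 and 0 CPM in the naive ones, so that most of the effector mean came from replicate 2. That replicate was also the highest effector library in the summed level of the 45 genes. Gbp4, another GBP gene, averaged 431 ± 179.8, 502 ± 126, 70.8 ± 17.7 and 182 ± 22.1 CPM in naive, effector, day 4 and day 14 libraries, an order of groups also seen for Gbp7.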
